A study of Mus musculus with 6 samples.

Results

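Nlrp12 and 9 other genes of NOD-like receptor signalling were followed in mouse liver by RNA sequencing. The 10 genes, of 55487 in the tables, were taken by symbol. They comprised 8 receptor genes (Nlrp12, Nlrp6, Nlrp3, Nod1, Nod2, Nlrc3, Nlrc5 and Nlrx1) together with Pycard and Casp1, which encode the adaptor ASC and caspase-1. All 10 were found by their Ensembl identifiers. They were chosen by their family and role and selected on the SCADD against WT difference of Nlrp12 in these libraries, so their values are given as a description, with no test.

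NOD-like receptors are cytosolic sensors built around a nucleotide-binding NACHT domain and, in most members, leucine-rich repeats. Some of them, NLRP3 above all, assemble with ASC and caspase-1 into inflammasomes, which mature interleukin-1β and interleukin-18 and cut the pore-forming protein gasdermin D. NOD1 and NOD2 recognise fragments of bacterial peptidoglycan and signal through the kinase RIPK2 to NF-κB, NLRC5 activates transcription of MHC class I genes, and NLRP12, NLRC3 and NLRX1 have mostly been described as brakes on inflammatory signalling. NLRP12 is best known from neutrophils, monocytes and dendritic cells, and NLRP6 from the epithelium of the gut and from liver.

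The livers came from male mice aged 8 weeks on standard chow. The WT group held 3 animals of the substrain BALB_cJ. The SCADD group held 3 animals of BALB_cBYJ, a substrain that lacks short-chain acyl-CoA dehydrogenase, the enzyme that opens the mitochondrial oxidation of short fatty acids. Every SCADD animal belongs to one substrain and every WT animal to the other, so the enzyme defect and other differences between the substrains cannot be told apart. The labels name no transgene and no treatment.

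Libraries were made from polyadenylated RNA of 20 mg of frozen liver. Reads counted in genes numbered from 23991104 to 27148756 in the WT libraries and from 16948986 to 23912744 in the SCADD libraries. Unmapped reads made up 13.6% to 16.4% in WT and 25.1% to 36.6% in SCADD. Acads, the gene of the deficient enzyme, was at 182 ± 15.2 CPM (read counts scaled to library size, with TMM factors) in WT and at 100.2 ± 3.78 CPM in SCADD (SD, n = 3 per group), and the library ranges did not overlap. The 8 hepatocyte markers summed to 58756 to 82547 TPM (RSEM's abundance, scaled by transcript length) in WT and 41009 to 81712 TPM in SCADD.

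Nlrp12 (ENSMUSG00000078817, chromosome 7, 3218784 to 3249740, minus strand, GRCm38) was close to the limit of detection in WT livers and among the genes with more reads in SCADD livers. WT replicates 1, 2 and 3 had 19, 2 and 13 reads, and SCADD replicates 1, 2 and 3 had 3404, 1826 and 2593 reads. On the CPM scale these were 0.687, 0.0874 and 0.488 CPM in WT and 139, 86.1 and 161 CPM in SCADD. All SCADD libraries were high and all WT libraries were low, far apart from each other. The group means were 0.421 ± 0.306 and 129 ± 38.4 CPM (SD, n = 3 per group), with a log2 fold change of 8.18 (SE 0.46), or 291-fold. The ratio of the pooled counts was 292, with an exact 95% interval of 208 to 421 that covers counting error only. Ranked by mean CPM among the 13498 genes with enough reads for a test, Nlrp12 stood at percentile 1.96 in WT and at percentile 93.5 in SCADD. This rank is not scaled by transcript length. Nlrp12 passed the read filter only through its SCADD libraries, so its low WT rank among the tested genes follows in part from that filter.

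**Figure D1:**
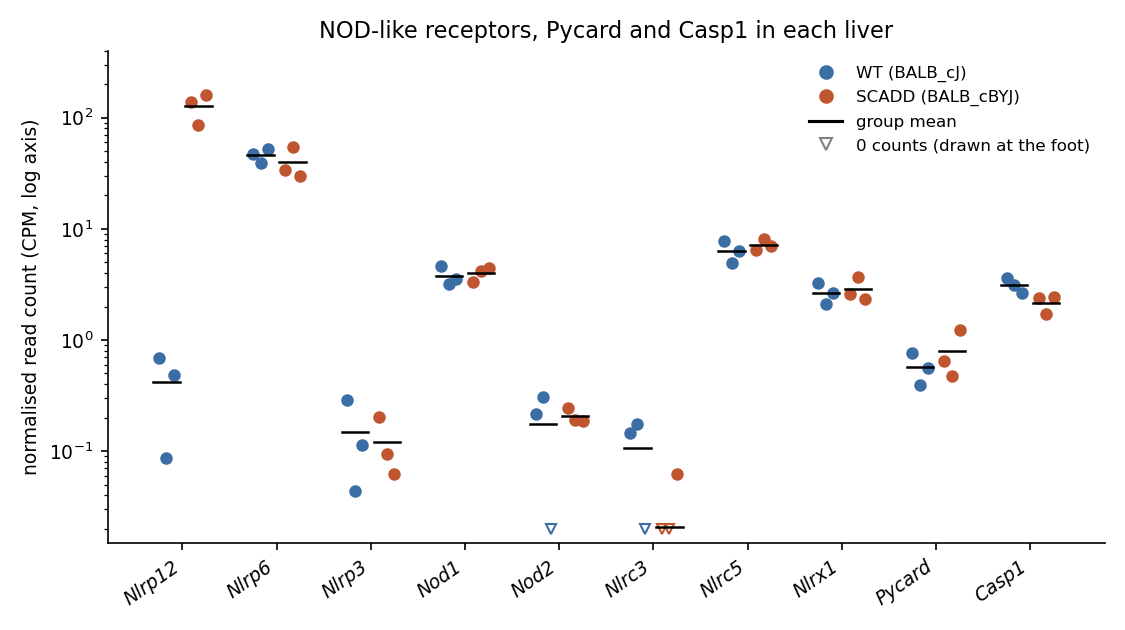
Normalised read counts (CPM, log axis) of the 10 genes in each of the 6 livers, blue for WT and orange for SCADD, with group means as bars and libraries with 0 counts as open triangles at the foot. Nlrp12 lies between 0.0874 and 0.687 CPM in WT and between 86.1 and 161 CPM in SCADD, while for 8 of the other 9 genes the library ranges of the groups overlap.

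The reads lay on the strand of the gene. Over Nlrp12 the opposite strand had 0 reads in WT and 9 in SCADD, 0.115% of the 7823 reads on the gene's own strand. The annotation lists a coding transcript of 6928 bases in 10 exons and a transcript of 2742 bases in 3 exons that keeps an intron. RSEM reports a length per gene that is weighted by the abundance of its transcripts. In SCADD replicates 1, 2 and 3 this length was 6882, 6885 and 6908 bases, which places 98.9%, 99.0% and 99.5% of the estimated molecules on the coding transcript. In WT it was 4632, 2742 and 3604 bases, but it rested on 17, 1 and 12 estimated reads, too few to place them between the transcripts.

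The stretch of 250 bases before the RefSeq start of Nlrp12 is shown next to that of Nlrp6, the receptor gene with the highest level in WT livers, since the groups differ in the transcript level of one and overlap in that of the other. Both come from the RefSeq promoter table for GRCm38.p6, the C57BL/6J reference and not a BALB genome, and are written in the direction of transcription. They are chr7:3249741-3249990 (minus strand) for Nlrp12 and chr7:140920652-140920901 (plus strand) for Nlrp6. Capitals mark the only match found to any of the 6 motifs searched.
Nlrp12: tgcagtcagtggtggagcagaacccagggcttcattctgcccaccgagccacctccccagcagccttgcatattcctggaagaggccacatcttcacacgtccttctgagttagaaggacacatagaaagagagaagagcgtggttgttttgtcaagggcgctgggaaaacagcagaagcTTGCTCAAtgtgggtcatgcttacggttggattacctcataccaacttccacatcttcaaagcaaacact
Nlrp6: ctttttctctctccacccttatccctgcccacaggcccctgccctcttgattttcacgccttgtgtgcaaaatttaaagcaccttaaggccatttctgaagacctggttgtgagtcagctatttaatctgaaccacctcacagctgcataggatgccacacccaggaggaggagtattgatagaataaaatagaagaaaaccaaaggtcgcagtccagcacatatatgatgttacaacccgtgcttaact
The table held 9 of the 10 genes. The motifs, searched on both strands, were the TATA box TATAAA, the nuclear receptor half-site AGGTCA, the CCAAT box CCAAT, the C/EBP site TTGCNNAA, the E-box CACGTG and the GATA site AGATAA. Among the windows of the same length in all 32851 promoters of the table they were present in 12.4%, 14.02%, 33.8%, 9.56%, 6.02% and 9.99%, in that order. The Nlrp12 window held 1 match, to the C/EBP letters, 70 bases before the start, which overlapped no other match. The Nlrp6 window held none. G and C made up 50.8% of the Nlrp12 window and 45.6% of the Nlrp6 window, beside a median of 52.4% over all promoters. The coding transcript in the GENCODE annotation begins 127 bases inside the RefSeq start, and these libraries do not show which start was used.

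Near the 3′ end of the Nlrp12 span lie the hairpins of a miRNA cluster that is transcribed from the opposite strand and is known from embryonic stem cells. Of its 7 hairpins on the plus strand, 6 (Mir291a, Mir292, Mir291b, Mir293, Mir294 and Mir295) lie inside Nlrp12, and Mir290a lies 75 bases beyond its annotated 3′ end. Reads on the Nlrp12 strand over these hairpins numbered 39, 24 and 43 in SCADD replicates 1, 2 and 3, and 0 in each WT library. All 7 hairpins had such reads in SCADD, from 6 over Mir293 to 29 over Mir291b. Reads on the miRNAs' own strand numbered 0 in all 6 libraries. A read was assigned to these hairpins 1.35 times for every 100 reads assigned to Nlrp12 in SCADD, and at that share the 34 WT reads would give 0.461 reads, so their lack in WT lies within counting error. Over Mir290a, beyond the annotated end of the gene, 13 reads of the Nlrp12 strand were found in SCADD.

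**Figure D2:**
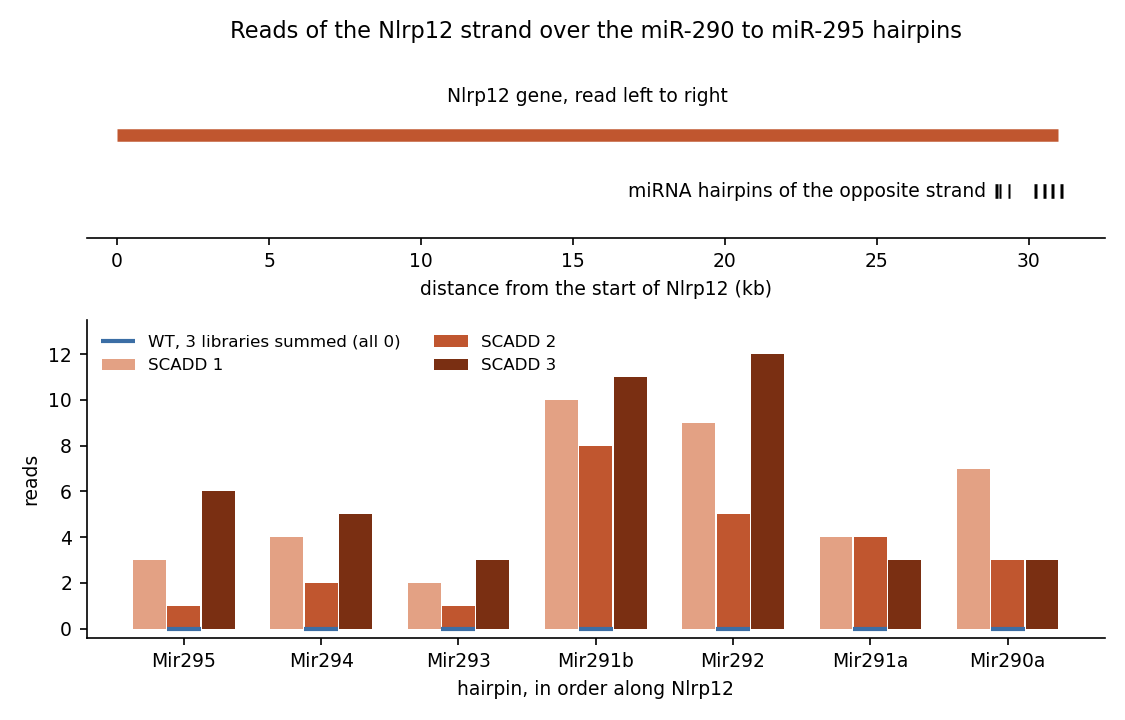
Upper panel, the span of Nlrp12 drawn from its 5′ end with the 7 miRNA hairpins of the opposite strand as ticks, in kb from the start of the gene. Lower panel, reads on the Nlrp12 strand over each hairpin in the 3 SCADD libraries (bars) and in the 3 WT libraries summed (blue line, all 0), where the 106 SCADD reads cover every hairpin, Mir290a beyond the gene's end included.

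The nearest other genes were read for comparison. Beyond the 3′ end these were Mir290a, Mir290b and the pseudogene Gm3375, which lies 36895 bases away. Gm3375 was at 24.8 ± 1.27 CPM in WT and 27.7 ± 4.46 CPM in SCADD (SD, n = 3 per group), with a log2 fold change of 0.15 (SE 0.14) at an edgeR adjusted p = 0.574. Mir290b, a hairpin on the strand of Nlrp12, had 0 reads in WT and 11 in SCADD, on the same bases as Mir290a. Beyond the 5′ end the pseudogene Gm20553 had 0 reads in every library and the pseudogene Gm5340 had 2 reads in WT and 1 in SCADD.

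Myadm, a membrane protein gene first described in myeloid cells, begins 39339 bases beyond the 5′ end. Of these neighbours only Gm3375 and Myadm had enough reads for the test, and Myadm passed it. Its reads numbered 67, 53 and 56 in WT and 112, 109 and 83 in SCADD. The levels were 2.28 ± 0.164 CPM in WT and 4.95 ± 0.333 CPM in SCADD (SD, n = 3 per group), with no overlap. The log2 fold change was 1.11 (SE 0.19) at an edgeR adjusted p = 0.00627, and its adjusted p lay between 0.000196 and 0.0345 over 15 alternative analyses.

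Nlrp6 (ENSMUSG00000038745, chromosome 7, 140920902 to 140929192, plus strand), whose product is a sensor of the intestinal and hepatic epithelium, was the receptor gene with the highest level in WT. It was at 47.1, 39.2 and 51.8 CPM in WT and at 34.1, 54.5 and 29.96 CPM in SCADD. The ranges overlapped, since SCADD replicate 2 was the highest of all 6 libraries and SCADD replicates 1 and 3 were the lowest. The means were 46.0 ± 6.37 and 39.5 ± 13.2 CPM (SD, n = 3 per group), with a log2 fold change of -0.22 (SE 0.21). Within the SCADD group the library with the highest Nlrp6 level had the lowest Nlrp12 level.

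Nlrp3 (ENSMUSG00000032691, chromosome 11, 59541568 to 59566956), the sensor of the best studied inflammasome, was hardly detected. It had 8, 1 and 3 reads in WT and 5, 2 and 1 reads in SCADD, with overlapping ranges. The ratio of pooled counts, scaled by library size, was 0.845, with an exact 95% interval of 0.2996 to 2.25. That interval covers counting error only and not the spread between animals, so no direction can be given at this depth. The transcript is known from macrophages and neutrophils, which are a minor part of liver RNA, and in bulk tissue fewer cells of a type and less RNA per cell cannot be told apart.

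For both peptidoglycan receptors the groups overlapped. Nod1 (ENSMUSG00000038058, chromosome 6, 54923949 to 54972612) was at 4.63, 3.19 and 3.57 CPM in WT and at 3.34, 4.15 and 4.47 CPM in SCADD. The ranges overlapped. Means were 3.796 ± 0.747 and 3.99 ± 0.579 CPM (SD, n = 3 per group), with a log2 fold change of 0.06 (SE 0.21). Nod2 (ENSMUSG00000055994, chromosome 8, 88647315 to 88688474) had 6, 7 and 0 reads in WT and 6, 4 and 3 reads in SCADD. Its pooled ratio was 1.27 with an exact 95% interval of 0.541 to 2.97, so no direction can be given for it.

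Among the regulatory receptors, Nlrc5 (ENSMUSG00000074151, chromosome 8, 94434356 to 94527272), the activator of MHC class I genes, was at 7.85, 4.90 and 6.34 CPM in WT and at 6.49, 8.07 and 7.01 CPM in SCADD. The ranges overlapped, with means of 6.36 ± 1.48 and 7.19 ± 0.806 CPM (SD, n = 3 per group) and a log2 fold change of 0.17 (SE 0.20). Nlrx1 (ENSMUSG00000032109, chromosome 9, 44252717 to 44268599), whose product sits in mitochondria and dampens antiviral signalling, was at 3.26, 2.10 and 2.63 CPM in WT and at 2.57, 3.68 and 2.36 CPM in SCADD. These ranges overlapped too, with means of 2.66 ± 0.579 and 2.87 ± 0.710 CPM (SD, n = 3 per group) and a log2 fold change of 0.11 (SE 0.25). Nlrc3 (ENSMUSG00000049871, chromosome 16, 3945007 to 3976632), a receptor described in T cells as a brake on signalling, had 4, 4 and 0 reads in WT and 0, 0 and 1 reads in SCADD. With 8 reads against 1, its pooled ratio was 0.158 with an exact 95% interval of 0.00357 to 1.18, and the library ranges overlapped.

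The effector side held the second gene whose CPM ranges did not overlap. Casp1 (ENSMUSG00000025888, chromosome 9, 5298517 to 5307265), the protease of the inflammasome, was at 3.62, 3.10 and 2.67 CPM in WT and at 2.37, 1.698 and 2.42 CPM in SCADD. All 3 SCADD libraries were below all 3 WT libraries, although SCADD replicate 3 and WT replicate 3 lay close together. The means were 3.13 ± 0.477 and 2.16 ± 0.402 CPM (SD, n = 3 per group), with a log2 fold change of -0.54 (SE 0.23), or 0.689-fold. On the TPM scale the values were 2.64, 2.10 and 1.66 TPM in WT and 1.68, 1.11 and 1.22 TPM in SCADD, and there SCADD replicate 1 and WT replicate 3 overlapped. Pycard (ENSMUSG00000030793, chromosome 7, 127989708 to 127993867), the adaptor between sensor and caspase-1, had 21, 9 and 15 reads in WT and 16, 10 and 20 reads in SCADD. Its ranges overlapped, and its log2 fold change of 0.40 (SE 0.42) became -0.03 when SCADD replicate 3 was left out.

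Of the 10 genes, 7 had enough reads for the test across all genes, and Nlrp3, Nod2 and Nlrc3 did not. By edgeR's quasi-likelihood test with Benjamini-Hochberg adjustment at 0.05, 1 of the 7 was called higher in SCADD (Nlrp12) and 0 were called lower. Over all 13498 tested genes 7.02% were called, 4.22% higher and 2.8% lower. Groups with separate CPM ranges were seen for 2 of the 7 genes (Nlrp12 and Casp1), and for 28% of all tested genes. Since the genes were chosen with these values known, nothing is read from those counts. The median log2 fold change of the 7 was 0.11, beside -0.00 over all tested genes, whose median absolute log2 fold change was 0.24.

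Levels of different genes were compared in TPM, which allows for transcript length. In WT livers Nlrp6 came at the head with 10.7 ± 1.29 TPM (SD, n = 3), and its range did not overlap that of any other gene in the set. Casp1 followed with 2.13 TPM and Nlrc5 with 1.85 TPM, whose ranges overlapped, and then, below Nlrc5 without overlap, Nod1 with 0.883 TPM, Nlrx1 with 0.850 TPM and Pycard with 0.497 TPM, which overlapped in turn. Nlrp12 came at rank 7 with 0.107 ± 0.0757 TPM, and its range overlapped that of Pycard above it. Below it were Nlrc3, Nlrp3 and Nod2, which lay between 0.0333 and 0.0400 TPM and overlapped each other and Nlrp12. In SCADD livers Nlrp12 came at rank 1 with 17.3 ± 3.75 TPM (SD, n = 3), and its range just overlapped that of Nlrp6 at 8.87 ± 4.15 TPM. Below them were Nlrc5 with 2.17 TPM, Casp1 with 1.34 TPM, Pycard with 0.90 TPM, Nod1 with 0.863 TPM and Nlrx1 with 0.810 TPM, of which the last 3 overlapped. Nlrx1, which reached 1.21 TPM, also overlapped Casp1, which began at 1.11 TPM. Nlrp3, Nod2 and Nlrc3 stayed at the foot with 0.0433, 0.0400 and 0.00333 TPM. Ranks 7 and 1 were also those of Nlrp12 when CPM per kilobase of exon was used, and on that scale its SCADD range of 11.4 to 21.3 lay above that of Nlrp6, 5.90 to 10.7. The TPM of Pycard rests on 8 to 19 estimated reads per library, and RSEM gave it a length between 703 and 3061 bases, so its place in the order is loose.

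Summed over the 8 receptor genes, the transcript level was 16.4, 12.3 and 14.9 TPM in WT replicates 1, 2 and 3, and 32.2, 31.5 and 26.5 TPM in SCADD replicates 1, 2 and 3. Nlrp12 made up 0.976%, 0.162% and 0.941% of this sum in WT. In SCADD it made up 64.3%, 42.1% and 67.5%. Nlrp6 made up 69.9% to 77.1% in WT and 19.9% to 42.5% in SCADD. Without Nlrp12 the sums were 16.2, 12.3 and 14.7 TPM in WT and 11.5, 18.3 and 8.61 TPM in SCADD, and the groups overlapped. The ratio of Nlrp12 to Nlrp6 in SCADD was 2.61, 0.990 and 3.39, so both transcripts were about level in SCADD replicate 2.

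**Figure D3:**
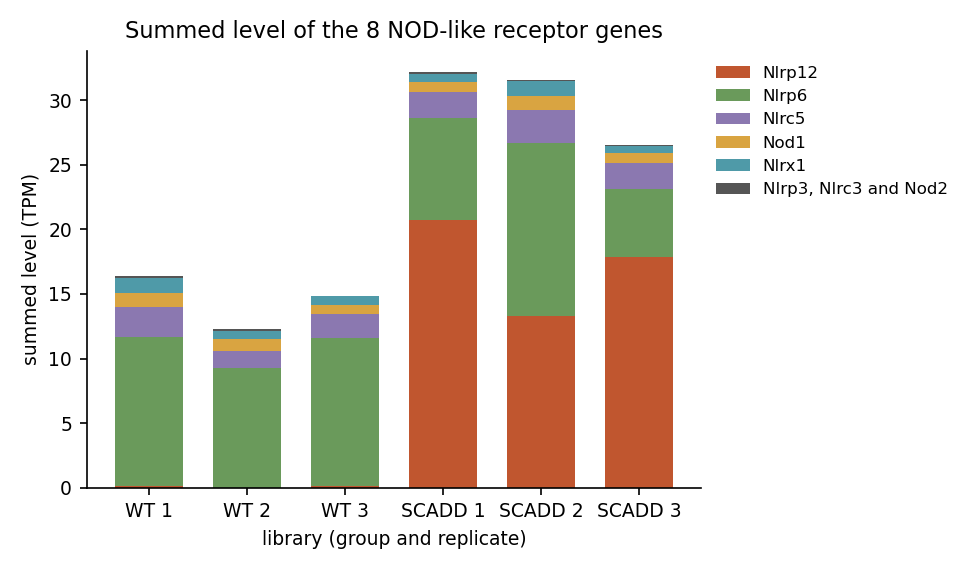
Summed level (TPM) of the 8 receptor genes in each library, stacked by gene. The WT stacks reach 12.3 to 16.4 TPM and consist mostly of Nlrp6, and the SCADD stacks reach 26.5 to 32.2 TPM with Nlrp12 as 42.1% to 67.5% of the sum.

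The genes whose pattern over the libraries was most like that of Nlrp12 were sought among 11350 genes, with Pearson's r of log2(CPM + 0.5) over the 6 libraries as the measure. Both groups enter this r, so any gene with a clear difference between them scores highly. The order of the libraries within a group enters it too, so likeness in that order follows in part from the choice. The 5 highest were Pex11a (r = 0.998), Abhd6 (r = 0.998), Pias2 (r = 0.996), Mogat1 (r = 0.996) and Tanc2 (r = 0.996). Pex11a, a factor of peroxisome division, was at 91.1, 71.7 and 83.3 CPM in WT and at 311, 258 and 339.6 CPM in SCADD. Mogat1, an acyltransferase that makes diacylglycerol, was at 0.398, 0.3497 and 0.601 CPM in WT and at 6.98, 5.33 and 8.06 CPM in SCADD. In both, as in Nlrp12, SCADD replicate 3 was the highest library and SCADD replicate 2 the lowest of its group. Abhd6, a hydrolase of monoacylglycerol, was at 35.7 ± 1.62 CPM in WT and 86.0 ± 8.10 CPM in SCADD (SD, n = 3 per group). For the ubiquitin-like ligase gene Pias2 the means were 12.5 and 18.4 CPM, and for the scaffold gene Tanc2 they were 1.69 and 3.62 CPM.

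The other genes of these pathways were taken as 6 lists of 115 genes by role. Of the 82 with enough reads, 0 were called higher and 1 was called lower by edgeR's quasi-likelihood test, 1.22% beside 7.02% over all tested genes. Another 20 had an unadjusted p under 0.05 without being called, 24.4% of the 82 beside 15.6% (2111) of all tested genes. The median log2 fold change of the 82 was -0.09. These counts moved with the processing, since DESeq2 called 1 higher and 6 lower, and upper-quartile scaling called 5 lower. Without WT replicate 1 the lower calls numbered 3, without WT replicate 2 or SCADD replicate 1 they numbered 0, and they numbered 4 when SCADD replicate 2 and 3 when SCADD replicate 3 was left out. There was 1 call higher without WT replicate 1 or SCADD replicate 3.

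Of the 22 remaining receptor genes of the family, 11 had 0 reads in all 6 libraries. The other 11 had reads, but only 2 had enough for the test, and neither of these was called. Naip2, which belongs to the sensors of bacterial secretion proteins, was at 3.11 ± 0.758 CPM in WT and 3.85 ± 0.330 CPM in SCADD (log2 fold change 0.30, edgeR adjusted p = 0.461). Nlrp1b, a sensor of bacterial proteases, was at 0.520 ± 0.0620 and 0.390 ± 0.256 CPM (log2 fold change -0.50, edgeR adjusted p = 0.581). Naip2 belongs to a family of near-identical copies. Reads that map to several of them are not in its count, and a read of another copy may still be counted as Naip2.

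Of 23 genes for inflammasome sensors, triggers and products 19 were tested, of which 1 fell and 0 rose. That is 5.26% called, beside 7.02% of all tested genes. A negative log2 fold change was seen for 16 of the 19, with a median of -0.25 beside -0.00 over all tested genes. Whether the list as a set was lower was not tested. The substrates of caspase-1, named here for their role after their values were seen, did not pass the test. Il18 was at 10.6 ± 2.44 CPM in WT and 9.23 ± 1.57 CPM in SCADD (edgeR adjusted p = 0.613), Il1b at 4.76 ± 3.89 and 4.56 ± 3.38 CPM (edgeR adjusted p = 0.959), and Gsdmd, the gene of gasdermin D, at 16.01 ± 0.704 and 13.4 ± 2.32 CPM (edgeR adjusted p = 0.379; SD, n = 3 per group).

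The gene that fell was Txnip (chromosome 3, 96557957 to 96561883, plus strand), the thioredoxin-interacting protein, which has been described as a trigger of NLRP3. It was at 78.5, 83.0 and 102 CPM in WT and at 35.3, 57.8 and 42.2 CPM in SCADD, so that all SCADD libraries were below all WT libraries. The means were 87.7 ± 12.3 and 45.1 ± 11.6 CPM (SD, n = 3 per group), with a log2 fold change of -0.96 (SE 0.19) at an edgeR adjusted p = 0.0126. The call was lost with RSEM's expected counts (log2 fold change -0.48, edgeR adjusted p = 0.0736) and with counts that ignore strand (-0.00, edgeR adjusted p = 0.995). It was also lost without WT replicate 2 (edgeR adjusted p = 0.0504), WT replicate 3 (0.0589) or SCADD replicate 1 (0.0510).

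The span of Txnip lies within that of Gm15441 (chromosome 3, 96555765 to 96566801, minus strand), an antisense transcript chosen after its values were seen. The spans share all 3927 bases of Txnip, counted from gene start to gene end. The overlap of their exons was not measured. Gm15441 was at 18.5, 3.85 and 4.69 CPM in WT and at 167, 89.1 and 169 CPM in SCADD. All SCADD libraries were above all WT libraries, and WT replicate 1 stood above the other two WT libraries. The means were 9.02 ± 8.24 and 142 ± 45.7 CPM (SD, n = 3 per group), with a log2 fold change of 3.96 (SE 0.71) at an edgeR adjusted p = 0.0319. The call was lost without a filter on low counts (edgeR adjusted p = 0.104) and without any 1 of WT replicates 2 and 3 and SCADD replicates 1, 2 and 3 (edgeR adjusted p between 0.0559 and 0.141). Without WT replicate 1 the log2 fold change was 5.04 (edgeR adjusted p = 4.88e-05). Within the pair, counts without strand mix reads of a transcript that was lower with reads of one that was higher in SCADD.

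**Figure D4:**
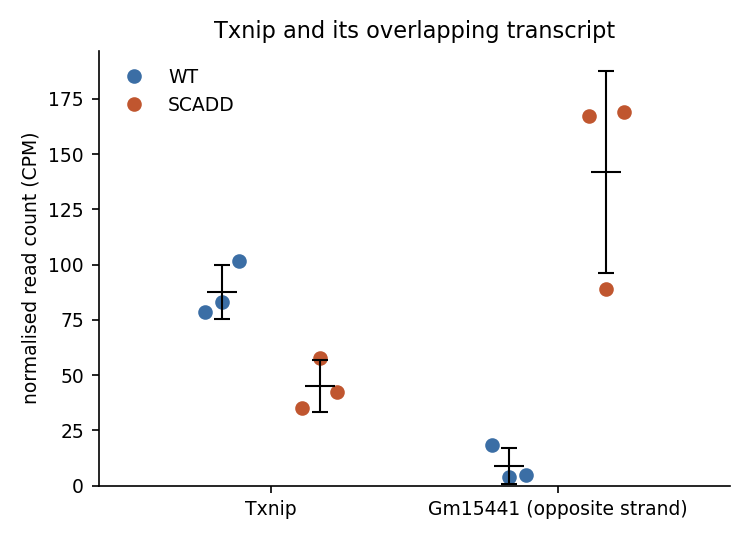
Normalised read counts (CPM) of Txnip and of Gm15441 in each WT and SCADD library (points), with the mean and SD of each group (bars). Gm15441 is the transcript on the opposite strand whose span includes that of Txnip. Txnip lies between 78.5 and 102 CPM in WT and between 35.3 and 57.8 CPM in SCADD, while Gm15441 lies between 3.85 and 18.5 CPM in WT and between 89.1 and 169 CPM in SCADD.

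Of the genes that carry the signal of NOD1 and NOD2, 20 of 22 were tested and 0 were called, with 7 at an unadjusted p under 0.05 and a median log2 fold change of 0.08. Birc2, a ubiquitin ligase of the RIPK2 complex, was at 42.3 ± 5.34 CPM in WT and 30.4 ± 2.53 CPM in SCADD (log2 fold change -0.48, edgeR adjusted p = 0.0640). Erbin, a binding partner of NOD2, was at 52.7 ± 2.73 and 67.7 ± 2.48 CPM (log2 fold change 0.36, edgeR adjusted p = 0.0978). The kinase gene Ripk2 itself, named for its role, was at 3.99 ± 0.0988 and 4.53 ± 0.804 CPM (edgeR adjusted p = 0.627; SD, n = 3 per group).

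Of 22 genes for NF-κB subunits, regulators and targets 17 were tested and 0 were called, with 3 at an unadjusted p under 0.05 and a median log2 fold change of 0.02. Icam1, an adhesion molecule induced by NF-κB, was at 1.68 ± 0.938 CPM in WT and 3.11 ± 0.751 CPM in SCADD (log2 fold change 0.89, edgeR adjusted p = 0.171). It passed without WT replicate 1 (1.45, edgeR adjusted p = 0.0254) and with no filter on low counts (0.89, edgeR adjusted p = 0.0186). Nfkbiz, an atypical regulator of NF-κB, was at 4.99 ± 1.31 and 3.44 ± 0.609 CPM (log2 fold change -0.54, edgeR adjusted p = 0.211). Traf3 and Map3k14, which NLRP12 has been described to act on in the non-canonical pathway, were named for that role. Traf3 was at 3.74 ± 0.595 and 3.79 ± 0.598 CPM (edgeR adjusted p = 0.966), and Map3k14 at 1.11 ± 0.115 and 1.501 ± 0.543 CPM (edgeR adjusted p = 0.447; SD, n = 3 per group).

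All 13 genes for NLRC5 and MHC class I presentation were tested and 0 were called, with 3 at an unadjusted p under 0.05 and a median log2 fold change of -0.10. Rfxank, a subunit of the complex through which NLRC5 acts, was at 11.3 ± 1.22 CPM in WT and 7.45 ± 1.02 CPM in SCADD (log2 fold change -0.60, edgeR adjusted p = 0.0512). H2-K1, a classical MHC class I heavy chain, was at 324 ± 13.6 and 239.7 ± 9.26 CPM (log2 fold change -0.44, edgeR adjusted p = 0.0832). Class I genes are a family of similar copies. Reads that map to several of them are not in this count, and a read of another member may still be counted as H2-K1.

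Of 13 genes for mitochondrial antiviral signalling, the pathway that NLRX1 is known to restrain, 11 were tested and 0 were called, with 3 at an unadjusted p under 0.05 and a median log2 fold change of -0.14. The kinase gene Ikbke was at 8.43 ± 1.51 CPM in WT and 5.29 ± 0.697 CPM in SCADD (log2 fold change -0.67, edgeR adjusted p = 0.0560). The transcription factor gene Irf3 was at 50.5 ± 2.84 and 36.9 ± 4.28 CPM (log2 fold change -0.45, edgeR adjusted p = 0.0655; SD, n = 3 per group). With DESeq2, the 6 pathway genes called lower were Txnip, Birc2, Rfxank, H2-K1, Ikbke and Irf3. Leaving out a library also put Birc2 (without WT replicate 1 or SCADD replicate 3), Rfxank (without SCADD replicate 3) and Ikbke (without SCADD replicate 2) past the threshold by edgeR. Other pathway genes, not named here, also passed in some of these fits, higher as well as lower.

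**Figure D5:**
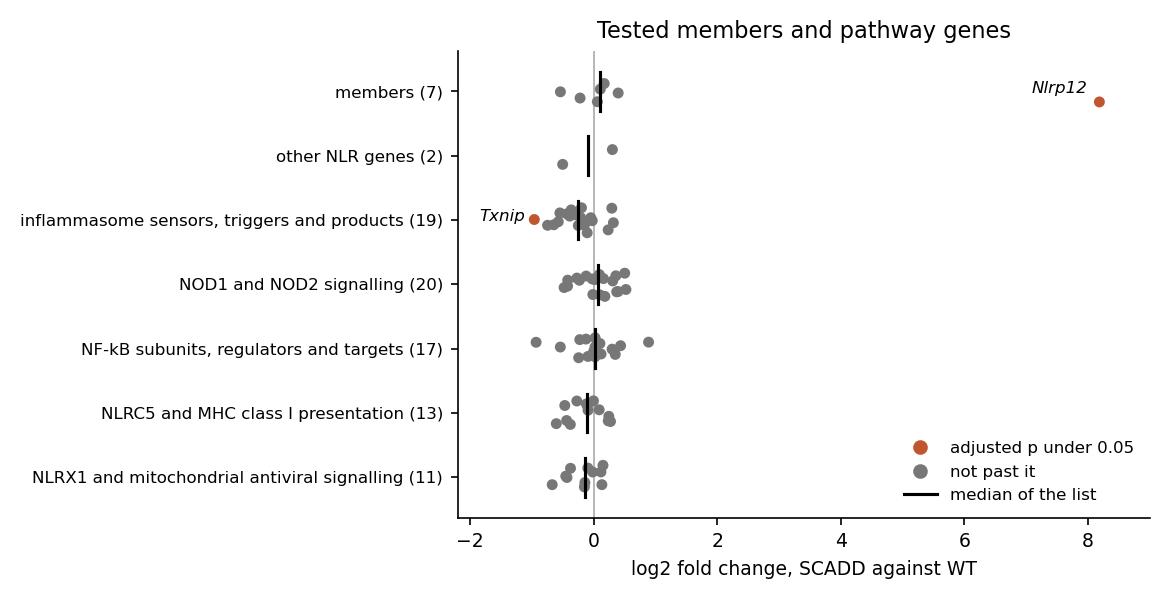
Log2 fold change of SCADD against WT (x axis) for each tested gene of the set and of 6 pathway lists (y axis, number of tested genes in brackets), with the median of each list as a vertical bar and genes with an adjusted p under 0.05 in orange. Nlrp12 stands at 8.18, Txnip at -0.96, and the other genes lie between -0.93 and 0.89. The set was selected on the difference of Nlrp12, so the colour of Nlrp12 is a description and not a test.

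Markers of the cell types that could carry these transcripts were read in the same libraries. The 10 neutrophil markers summed to 4.97 to 9.97 TPM in WT and 6.42 to 16.1 TPM in SCADD, and the 9 markers of monocytes and dendritic cells to 2.35 to 3.33 and 2.79 to 3.39 TPM. Both pairs of ranges overlapped, and 0 of the 3 tested markers in either list were called by edgeR. The neutrophil marker with the smallest p, S100a8, was at 0.835 ± 0.173 CPM in WT and 1.64 ± 1.27 CPM in SCADD (log2 fold change 0.92, edgeR adjusted p = 0.296, and 0.14 without SCADD replicate 3, edgeR adjusted p = 0.847). Cx3cr1 of the monocytes was at 1.07 ± 0.495 and 1.98 ± 0.545 CPM (edgeR adjusted p = 0.167). The 12 Kupffer cell markers summed to 189.9 to 263 TPM in WT and 163 to 193 TPM in SCADD, with 0 of 12 called. C1qa, the one with the smallest p, was at 34.6 ± 2.43 and 26.0 ± 6.41 CPM (edgeR adjusted p = 0.176, and 0.00947 without SCADD replicate 3). Its log2 fold change of -0.41 was the lowest of the list. The highest was 1.42, and 4 were positive and 8 negative, so the markers did not move together. Ranges also overlapped for T and NK cells (0.590 to 1.98 and 1.07 to 1.38 TPM), stellate cells (181 to 288 and 160.5 to 235 TPM) and hepatocytes.

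For 3 lists the summed ranges did not overlap. The 7 markers of sinusoidal endothelium summed to 145 to 186 TPM in WT and 85.9 to 114 TPM in SCADD, and 1 of them, Lyve1, fell, with 6.42 ± 2.44 CPM in WT and 2.42 ± 0.167 CPM in SCADD (SD, n = 3 per group; edgeR adjusted p = 0.0152). The 6 markers of B and plasma cells summed to 3.93 to 6.77 TPM in WT and 7.91 to 12.3 TPM in SCADD, and 1 of 3 tested, Jchain, rose, with 3.67 ± 0.340 CPM in WT and 11.5 ± 6.55 CPM in SCADD (SD, n = 3 per group; edgeR adjusted p = 0.0268). The other tested markers of that list, Ms4a1 and Cd79b, had log2 fold changes of -0.57 and -0.49 (edgeR adjusted p = 0.588 and 0.767), opposite in sign to Jchain, and the list's median was -0.49. The 6 markers of cholangiocytes summed to 36.3 to 44.5 and 26.4 to 29.2 TPM, with 0 of 3 called. The call of Lyve1 was lost without WT replicate 2 (edgeR adjusted p = 0.0703) or WT replicate 3 (edgeR adjusted p = 0.0625), and that of Jchain without WT replicate 1, 2 or 3 (edgeR adjusted p = 0.0720, 0.107 and 0.0804). No marker of the 9 lists was at 0 in all libraries, and the part of these cell types in the levels of Nlrp12, Casp1 and the other genes was not tested.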

How the data were processed

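The authors deposited 2 tables per library, STAR's counts of whole reads in each gene, not normalised, and RSEM's table of expected counts, of TPM (scaled by gene length and to 1 common total) and of gene lengths. The submitters' processing notes name STAR 2.7.6a, RSEM 1.3.3 and the build GRCm38. The release of the annotation and the fate of reads that map to several genes in RSEM are not given in the sources used here. Column 4 of the STAR tables was used, since it held 96.8% to 97.3% of stranded reads in each library. Column 3, the opposite strand, was read at single genes. Summary entries of the STAR tables (unmapped, multi-mapped, in no gene, ambiguous) stayed out of library sizes. Symbols, coordinates and exon lengths came from GENCODE M21, which held 55227 of the 55487 identifiers.

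The test was edgeR 4.0.16's robust quasi-likelihood fit in R 4.3.3, with TMM scaling, on the 13498 genes that passed filterByExpr at its minimum count of 10. All 6 libraries entered, and the group was the sole term. Benjamini-Hochberg adjustment covered all tested genes, and calls were made at 0.05. SEs are approximate, obtained from the log2 fold change and the F statistic. Pooled count ratios were scaled by library size and given exact 95% intervals, which cover counting error only and not the spread between animals. Libraries of a group were not duplicates of each other (chi-square of 32.8 to 121 per degree of freedom). The 3 livers of a group are separate animals per the labels. The fit was tested on simulated data. It recovered 20% of the genes changed 1.5-fold, 62% of those changed 2-fold and 94% of those changed 4-fold. Of its 139 calls 4 were false. A gene that was not called may therefore still differ by a small fold.

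The 10 genes and the lists were chosen with earlier results of these data known. Named were all 10, up to 4 called genes per pathway list (or the 2 with the smallest p) and up to 2 per marker list (or 1), the 3 nearest genes on each side of Nlrp12, and the 5 genes most like it, of at least 0.5 CPM and without predicted names. A list with 1 called gene names that gene alone. The alternatives tried were upper-quartile and RLE scaling, leaving low counts in or asking for 1 CPM in 3 libraries, DESeq2 1.42.0, limma-voom (limma 3.58.1), RSEM expected counts rounded to whole numbers, counts without strand, a replicate block, and each library left out.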

Additional observations from a re-analysis of the deposited data

How the results depend on the processing

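The log2 fold change of Nlrp12, 8.18, lay between 7.76 and 8.70 over 15 alternatives, and both ends came from leaving out 1 library, 7.76 without WT replicate 2 and 8.70 without WT replicate 1. It was 8.25 with a replicate block. Casp1 stayed between -0.64 and -0.40, Nlrp6 between -0.53 and -0.05 and Nlrc5 between 0.02 and 0.34. The sign changed for Nlrx1 (-0.12 to 0.27), Nod1 (-0.05 to 0.22) and Pycard (-0.03 to 0.65). Over all genes, 947 calls became 1702 with no filter on low counts, and 395 to 1590 when 1 library was left out (395 and 460 when WT replicate 2 or WT replicate 3 was missing, 517 when SCADD replicate 1 was missing and 1590 when SCADD replicate 3 was missing). DESeq2 gave 1290. Upper-quartile scaling split the calls into 470 higher and 482 lower, beside 569 and 378.

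Among pathway genes, 0 calls higher became 2 with no filter, 1 with DESeq2, 1 with the replicate block and 0 to 1 with 1 library left out. The 1 call lower became 5 with upper-quartile scaling, 6 with no filter, 2 with the filter of 1 CPM in 3 libraries, 6 with DESeq2, 0 with RSEM expected counts and 0 to 4 with 1 library left out. The cause of these shifts was not tested. Deviations of same-numbered libraries from their group means correlated weakly over all tested genes, at 0.0606, 0.0372 and 0.107. This measure cannot show a pairing that touches only some genes, so whether the numbers pair the animals was not settled. The replicate block called 1148 genes. With 3 animals per group and 34 WT reads of Nlrp12, the size of its fold rests on few molecules on the WT side, and Nlrp3, Nod2 and Nlrc3, with 1 to 13 reads per group, are too shallow for a direction.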
